A study of Mus musculus with 12 samples.

Results

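Tumor neutrophils that carried Ccl3 transcripts and no Retnlg transcript were examined by single-cell RNA sequencing (scRNA-Seq) of CD45+ cells from MC38 tumors, a mouse colon carcinoma line, grown under the skin of C57BL/6 mice. The 12 mice fell into 4 groups of 3. Each received daily subcutaneous vehicle or 100 mg/kg of PF-06821497, an inhibitor (EZH2i) of the histone methyltransferase EZH2, over 7 or 16 days, and CD45+ cells were taken on day 17. Cells were captured with microbeads against CD45 and profiled with a 3′ kit that counts unique molecular identifiers (UMIs). The pooled matrix carries a library number from 1 to 12 in each barcode, and the labels do not say which number is which mouse. The methods of the study give cell totals for each treatment group, but libraries were not assigned to groups from totals or order, so values are given by library and vehicle was not compared with EZH2i. Differences between libraries can include the treatment.

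Members were chosen by their own UMIs. Each had over 200 and under 5000 genes and at most 10% mitochondrial UMIs, with at least 1 UMI of Csf3r, at least 2 of Ccl3 and none of Retnlg, Adgre1, Cd3d, Cd3e or Cd3g. S100a8 and S100a9 together made up at least 20 in 10000 of the cell's UMIs, and C1qa, C1qb and C1qc together under 5. These limits were met by 342 of 128912 cells kept, or 0.265% (exact 95% binomial interval 0.238 to 0.295%), and by 26.9% of the 1273 cells that met the limits on all genes but Ccl3 and Retnlg (24.4 to 29.4%). The values of the 12 genes used in the rule are therefore a description, and so is every difference between populations set apart by Ccl3, Retnlg or the neutrophil and macrophage genes of the gates, as genes that vary together with them were in effect used too. No p-value is given. Intervals cover counting error only. Levels given without naming libraries are of UMIs summed over libraries, which weights each library by its UMIs. The library mix differed between populations, so such pooled ratios and their intervals can hold differences between libraries.

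Neutrophils are short-lived granulocytes that leave the bone marrow under the granulocyte colony-stimulating factor receptor, encoded by Csf3r. In blood they carry transcripts of some granule proteins and of Retnlg, a resistin-like secreted protein. In tumors and inflamed tissue some neutrophils turn on chemokine genes, among them Ccl3 and Ccl4, whose products attract monocytes, macrophages and T cells, and Cxcl2 and Cxcl3, whose products attract further neutrophils through CXCR2. Cells of this kind have been described in mouse and human tumors together with genes induced by low oxygen and with Cd274, the gene of the checkpoint ligand PD-L1.

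The promoter windows of 4 genes that the results turn on are printed to show the sequence in front of them. Ccl3, the gene of the rule, lies on chromosome 11 (GRCm38, chr11:83647844-83649355, minus strand), Cxcl2 and Cxcl3 lie on chromosome 5, and Hilpda, a lipid droplet protein gene induced by low oxygen, lies on chromosome 6. Each window holds 300 bases, 250 before and 50 after the RefSeq start, read 5′ to 3′ on the strand of the gene (RefSeq, GRCm38.p6). They span chr11:83649329-83649628 on the minus strand for Ccl3, and on the plus strand chr5:90903649-90903948 for Cxcl2, chr5:90785851-90786150 for Cxcl3 and chr6:29272376-29272675 for Hilpda, the downstream one of its 2 listed windows. Capitals mark every match on either strand. The motifs searched were the core of the hypoxia response element, spelled ACGTG in its first form and spelled GCGTG in its other form, the E-box spelled CACGTG, which overlaps the first form, the TATA box spelled TATAAA, and the kappaB consensus.
Ccl3: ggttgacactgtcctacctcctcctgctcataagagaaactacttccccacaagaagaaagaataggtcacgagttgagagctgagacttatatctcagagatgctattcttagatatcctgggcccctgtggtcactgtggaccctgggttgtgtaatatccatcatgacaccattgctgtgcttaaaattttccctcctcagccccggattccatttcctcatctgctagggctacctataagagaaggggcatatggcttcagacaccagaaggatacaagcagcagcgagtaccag
Cxcl2: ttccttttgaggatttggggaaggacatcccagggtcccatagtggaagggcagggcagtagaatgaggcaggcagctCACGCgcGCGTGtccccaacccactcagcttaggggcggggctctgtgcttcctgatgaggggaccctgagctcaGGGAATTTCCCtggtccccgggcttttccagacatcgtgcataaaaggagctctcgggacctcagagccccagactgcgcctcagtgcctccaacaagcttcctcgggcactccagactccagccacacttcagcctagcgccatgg
Cxcl3: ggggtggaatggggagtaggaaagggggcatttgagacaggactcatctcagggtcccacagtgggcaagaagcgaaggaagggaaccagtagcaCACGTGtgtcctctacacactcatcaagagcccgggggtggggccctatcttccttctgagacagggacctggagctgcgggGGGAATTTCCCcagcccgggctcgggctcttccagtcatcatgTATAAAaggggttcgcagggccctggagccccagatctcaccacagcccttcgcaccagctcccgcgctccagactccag
Hilpda: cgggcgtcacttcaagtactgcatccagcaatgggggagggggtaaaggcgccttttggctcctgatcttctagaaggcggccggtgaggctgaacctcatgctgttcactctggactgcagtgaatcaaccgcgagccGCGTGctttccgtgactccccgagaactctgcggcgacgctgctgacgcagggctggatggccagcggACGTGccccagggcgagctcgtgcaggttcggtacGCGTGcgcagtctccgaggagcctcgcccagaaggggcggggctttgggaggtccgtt
The Ccl3 window held no match to any of these motifs. The kappaB consensus was matched on both strands, in overlapping stretches, in the Cxcl2 and Cxcl3 windows, and 8.46% of the 32851 windows of the table held a match. The hypoxia response core, in either form, was found 3 times in the printed Hilpda window and 2 times each in the Cxcl2 and Cxcl3 windows. Both matches in the Cxcl3 window are the strands of 1 E-box, CACGTG, and so are a single site. Of all windows, 43.8% held the core at least once. The other Hilpda window (chr6:29272238-29272537), not printed, overlaps the printed one. It held 1 match of the core, which is also in the printed window, and 1 of the kappaB consensus. The E-box was in 7.15% of all windows and the TATA box in 13.6%. Matches describe the letters of these windows and show no binding.

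The members were spread unevenly over the libraries. Library 4 held 156 of them (45.6%), libraries 8, 10 and 12 held 35, 34 and 35, libraries 1, 2, 3, 7, 9 and 11 held 11 to 17, and libraries 5 and 6 held 1 each. Among the 10 libraries with at least 10 members, they were 0.124 to 1.38% of the cells kept (median 0.245%) and 14.7 to 39% of the gated neutrophils (median 23.4%). Library 4 had the highest value of both shares, and without it the members were 0.158% of the cells kept. Library totals were 21649947 to 158760328 UMIs. Y-linked transcripts were present in libraries 1 to 6 (128 to 209 CPM, UMIs per 1000000) and Xist in the other 6, while the methods of the study name female mice. Counts for both sets of libraries stand in the closing section. Of the 140639 barcodes, 4547 shared their sequence with another library, among them 19 members, but no sequence was shared by 2 members. The highest Scrublet doublet scores of each library were flagged, at a preset share of 0.8% per 1000 barcodes of the library. This preset share flagged 15.1% of all barcodes and, of the members, 14 (4.09%), of which 12 were in library 4. As the flagged share was set by the size of each library, both percentages cannot be compared and do not measure doublets among the members.

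**Figure D1:**
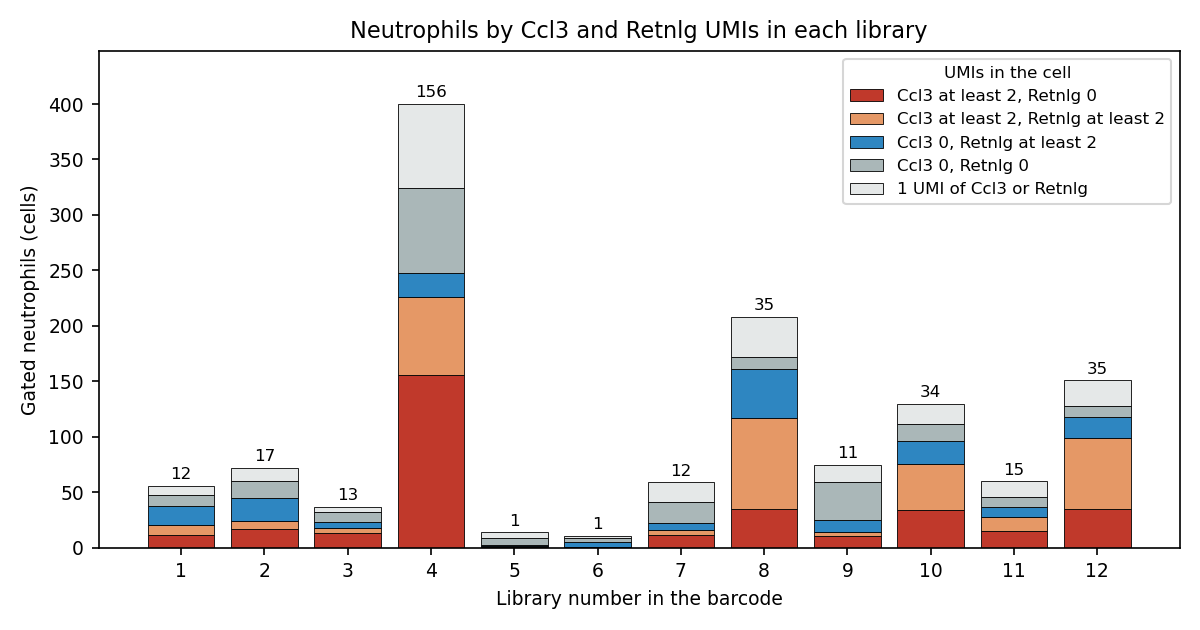
Gated neutrophils (cells, y axis) in each of the 12 libraries (x axis), split by their UMIs of Ccl3 and Retnlg, with the number of Ccl3-positive Retnlg-negative cells above each bar. Library 4 held 156 of these 342 cells, and libraries 5 and 6 held 1 each.

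The members were shallow cells with few mitochondrial UMIs. They had a median of 1726 UMIs (529 to 14307) and 711 genes, against 4438.5 UMIs in all cells kept, and a median mitochondrial share of 0.593%. By library the median was 853 to 3658 UMIs in the 10 libraries with at least 10 members. They carried a median of 11 UMIs of Ccl3 (2 to 371) and 2 of Csf3r, and S100a8 and S100a9, which encode the calprotectin subunits, made up a median of 274 in 10000 UMIs. In CPM of the summed population, Csf3r was at 1061 and was between 812 and 1342 in the 10 libraries, Ccl3 at 10510.4 (2993 to 12021) and S100a9 at 19849 (10985 to 31557).

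Neutrophil genes that the rule did not use were present, and 19 of 20 had a UMI in at least 10% of the members. Cxcr2, the receptor for the neutrophil-attracting CXC chemokines, had a UMI in 52.6% of the members. Its share was 0.333% in 4500 T cells gated from the same libraries, which should lack it and were deeper (median 3341.5 UMIs). Hdc, which encodes histidine decarboxylase, had a UMI in 70.2% of the members against 1.13%, and G0s2, an inhibitor of triglyceride lipase, in 71.9% against 0.911%. The T cells had at least 2 UMIs of Cd3 genes, none of Csf3r or Adgre1, and C1q under the limit of the members. T cells with a stray UMI of Csf3r were thus left out, while each member had to hold one. The gates can therefore have set part of the difference in these 3 genes, and how much was not tested. Ly6g, the classical surface marker, had a UMI in only 2.05% of the members, and Siglecf, used to mark a tumor neutrophil state in lung, in 2.34%. Transcripts of Cxcr2, Hdc and G0s2 were thus common among the members, and those of Ly6g and Siglecf were rare. Ly6g was also at only 0 to 23.1 CPM by library in gated neutrophils with at least 2 UMIs of both Ccl3 and Retnlg. Surface protein was not measured.

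Macrophage and monocyte markers stood above their levels in the T cells, and most other lists were low. The 12 macrophage markers summed to 2503 CPM in the members (1202 to 4360 in the 10 libraries), 2102 in Retnlg-positive Ccl3-negative neutrophils, 1078 in the T cells and 26245 in Ccl3-positive macrophages. Apoe, an abundant macrophage transcript, had a UMI in 80.7% of the members and in 80.8% of the deeper T cells, and its level was 1445 CPM in the members and 596 in the T cells. The basophil and mast cell markers summed to 6.3 CPM with 5 of 8 genes at 0 (Mcpt8, Fcer1a, Ms4a2, Gata2 and Tpsb2), and the eosinophil markers to 15.1 CPM with 5 of 7 at 0 (Epx, Prg2, Il5ra, Ear1 and Ear6). The 8 monocyte markers summed to 2531 CPM (607 to 7490) against 1383 in Retnlg-positive Ccl3-negative neutrophils, 1225 in the T cells and 1655 in the macrophages, the 12 dendritic cell markers to 1028 with Cd209a, Xcr1 and Clec9a at 0, and the T and NK cell, B and plasma cell, tumor and stroma, and red blood cell markers to 54.2, 37.8, 30.2 and 11.3. The part of these transcripts in the results that follow was not tested.

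The members were first set against the 179 Retnlg-positive Ccl3-negative neutrophils of the same gate (at least 2 UMIs of Retnlg, none of Ccl3, median 1377 UMIs). CPM ratios were formed within libraries 4, 8 and 10, which had at least 20 cells of both, after adding 10 CPM to each value. Genes with a UMI in at least 10% of the cells of either population were tested. A gene rare in 1 population thus entered through the other, which favours a call of higher there. List counts in this and the later comparisons hold calls of this kind. Among genes named below, Pdcd1lg2, Ankrd37, Tnip1, Lipa and Inhba entered through the members alone, and Ly6g through the Retnlg-positive cells alone. A gene is called higher or lower when the median log2 ratio was at least 1 in size and the sign was the same in all 3. Of 2521 genes tested, 204 were higher (8.09%) and 198 lower (7.85%). In 7 libraries with at least 10 cells of both, the same demand was met by 68 higher and 65 lower genes, of which 48 and 54 were among the former. Of the 204 and 198 genes, 120 and 108 passed with UMIs pooled over libraries, and 75 and 77 with cells thinned to 1000 UMIs, where library 8 alone had enough cells.

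Of 7 chemokine genes tested, 4 were higher in the Ccl3-positive Retnlg-negative cells. All 3 CXC chemokines were called higher (median log2 ratio 2.59 against -0.04 over all genes tested), and so was 1 of 4 CC chemokines. Ccl4, the neighbour of Ccl3 on chromosome 11 and a chemokine of the same family, was at 19287, 10384 and 12424 CPM in libraries 4, 8 and 10, against 882, 702 and 3148 in the Retnlg-positive cells. The values of both populations did not overlap in the 7 libraries, where the ratio was above 1 in all, and the ratio of pooled UMIs was 9.64 (exact 95% interval 8.88 to 10.5). Cxcl2 was at 46969, 52359.7 and 32155 CPM against 8874, 19387 and 9265, a pooled ratio of 3.24 (3.14 to 3.33). It was higher in the members of each of 7 libraries, but the Retnlg-positive cells of library 8 were above the members of libraries 1 and 9. Cxcl3 was at 12998, 7871 and 6228 CPM against 1609, 1297 and 1109 and was also higher in all 7 libraries. The windows of both genes printed above hold the kappaB match and the hypoxia response core, which in Cxcl3 is the E-box. Cxcl10, a ligand of CXCR3 on T cells, was at 418 against 192 CPM, higher in 6 of 7 libraries, and its log2 ratio turned to -0.22 with cells thinned to 1000 UMIs. Ccl6, not called, was at 2900.4 against 1587 CPM.

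**Figure D2:**
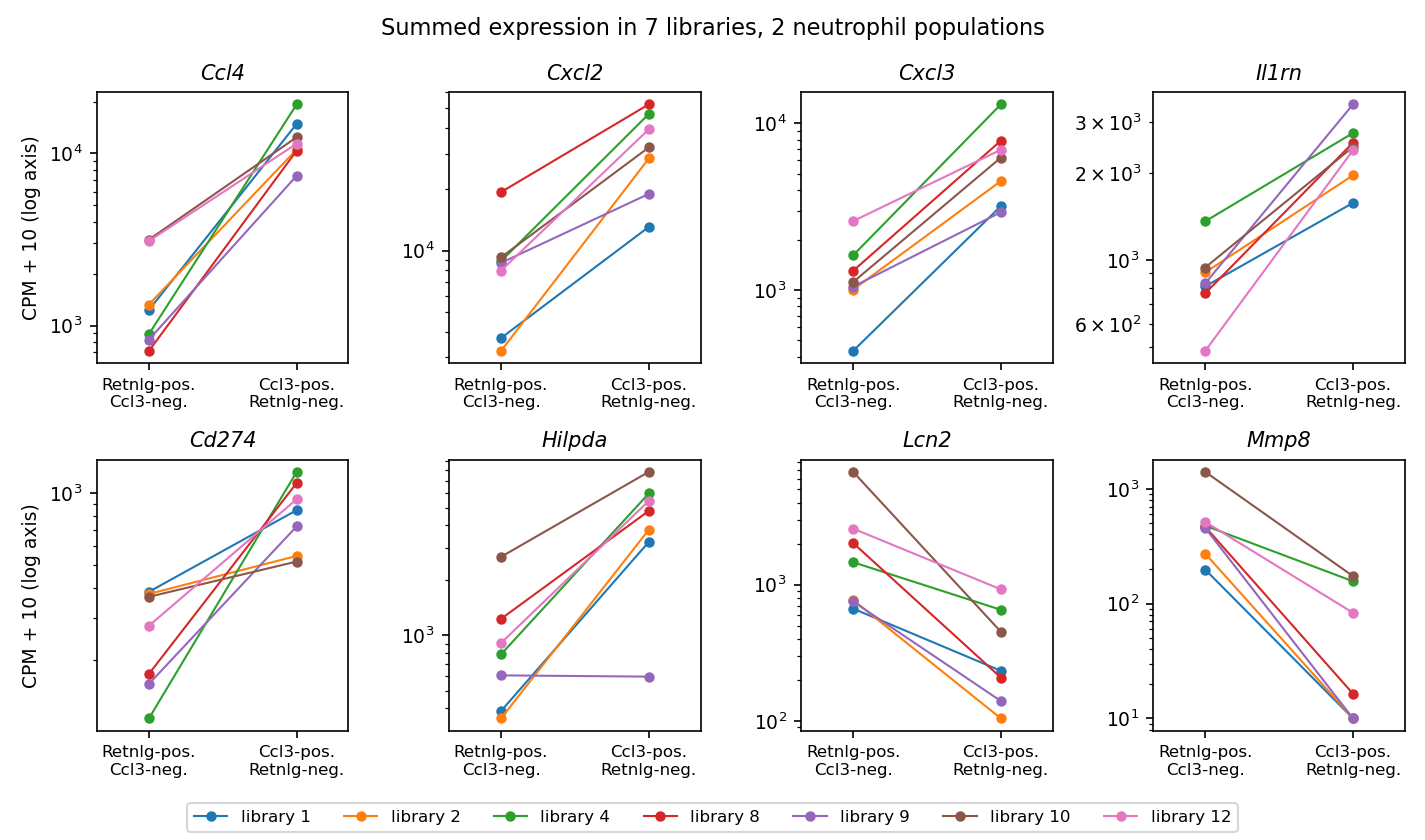
CPM plus 10 (log axis) of 8 genes in Retnlg-positive Ccl3-negative and in Ccl3-positive Retnlg-negative neutrophils, with 1 line for each of 7 libraries. Ccl4, Cxcl2, Cxcl3, Il1rn and Cd274 were higher in the Ccl3-positive cells of all 7 libraries, Hilpda in 6, and Lcn2 and Mmp8 were lower in all 7.

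Of 12 genes of the cytokine and interleukin 1 list, 4 were higher and none lower. Tnf, the tumor necrosis factor gene, was at 228 to 490 CPM in the members of the 7 libraries (median 279) against 0 to 143 in the Retnlg-positive cells, and the ranges did not overlap. Il1a, the gene of the alarmin interleukin 1 alpha, was at 286, 697 and 736 CPM in libraries 4, 8 and 10 against 0, 47.8 and 71.5, and was at 0 in both populations of library 9. Il1rn, which encodes the antagonist of the interleukin 1 receptor, was at 1565 to 3448 CPM in the members of the 7 libraries and at 473 to 1349 in the other cells, again without overlap. Csf1, the macrophage growth factor gene, was at 769.8 against 256 CPM, a ratio of 3 (2.44 to 3.72), and higher in all 7 libraries. Il1b moved apart from these genes, with a higher value in 4 of 7 libraries and 12100.4 against 13972 CPM when pooled (ratio 0.866, 0.838 to 0.895). Library 4 held 156 of the 342 members but 22 of the 179 Retnlg-positive cells. Il1b was at 9131 CPM in its members and at 20243 in those of library 8, so the pooled ratio can follow the library mix. Ptgs2, the inducible cyclooxygenase, was not called, with 3115 against 1738 CPM.

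Of 21 tumor-associated neutrophil genes tested, 8 were higher and none lower (median log2 ratio 1.04). Cd274 was at 1217, 1093 and 507 CPM in libraries 4, 8 and 10 against 104, 165 and 358. It was higher in all 7 libraries, with the lowest member value, 507, above the highest of the other cells, 376. The pooled ratio was 4.69 (3.77 to 5.89). Pdcd1lg2, the gene of PD-L2, was at 68 against 9.59 CPM and Cd80 at 132 against 105, both called, but the interval of the Cd80 ratio held 1 (0.874 to 1.83). Cstb, which encodes the cathepsin inhibitor cystatin B, was at 2152 against 542 CPM and higher in 7 of 7 libraries. Fth1, the ferritin heavy chain gene, was at 56364 against 28854, a ratio of 1.95, and Hmox1, the heme oxygenase gene, at 879 against 168, each higher in all 7. Arg1 was called higher at 384 against 71.9 CPM, but without library 4 it was at 65.8 against 67.8. Spp1, the osteopontin gene, was not called: it was at 4977, 448 and 997 CPM in the members of libraries 4, 8 and 10 and at 311, 90.4 and 1109 in the other cells, and library 10 went the other way.

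Of 28 genes induced by low oxygen or of glycolysis, 10 were higher and 1 lower (median log2 ratio 0.80). Hilpda was at 5973, 4795 and 7847 CPM in libraries 4, 8 and 10 against 778, 1223 and 2683, and higher in 6 of 7. In library 9 it was at 586 CPM in the members and 595 in the Retnlg-positive cells, and the members of that library stood below all others. Ankrd37 (118 against 19.2 CPM), Ero1l, an endoplasmic reticulum oxidase (809 against 343), and Mif, a cytokine (1358 against 436), were higher in all 7 libraries. Egln3, an oxygen-sensing prolyl hydroxylase (552 against 132), P4ha1, a collagen prolyl hydroxylase subunit (271 against 86.3), and Vegfa, the angiogenic growth factor (475 against 211), were called but higher in 5 of 7. The glycolytic genes Pfkp, Tpi1 and Pgk1 were called with pooled ratios of 2.47, 2.41 and 2.17, and with thinned cells the log2 ratio of Tpi1 turned to -0.57. Slc2a3, the glucose transporter GLUT3, was the lower gene, at 86.9 against 338 CPM and lower in all 7. Of the 10 higher genes, 9 had a promoter window and 8 of those held the hypoxia response core, while 24 of 27 of the whole list and 46.7% of 27025 genes did.

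Of 18 genes of the NF-kB pathway, 4 were higher and none lower. Nfkbia, the inhibitor that NF-kB induces, was at 4487 against 2027 CPM (ratio 2.21, 2.05 to 2.39) and higher in 6 of 7 libraries. Tnip1, a partner of A20, was at 73.1 against 19.2, and Traf1, a signalling adaptor, at 229 against 125. Ier3, an early response gene, was at 5051 against 1793 and higher in 7 of 7, while Fosb was lower at 219 against 431, and 2 of 21 immediate early genes were higher and 1 lower. Of 8 genes of the BCL2 family, 3 were higher, all of them copies of the survival gene A1: Bcl2a1a, Bcl2a1b and Bcl2a1d, with ratios of 3.42, 2.69 and 2.45. These copies are near-identical, so how reads were divided among them is uncertain. Mcl1 was at 3067 against 3612 CPM and was not called.

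Interferon-stimulated genes were split, with 5 of 20 higher and 1 lower. Ifit2, Ifit3 and Usp18 had ratios of 2.79, 3.21 and 3.2. Ifit3 shares reads with its close copy Ifit3b and is uncertain. Cmpk2 was called higher at 132 against 62.3 CPM, but with thinned cells its log2 ratio was -1.02. Ifitm1 was lower at 1314 against 3039 CPM. Rsad2 and Isg15 were not called, at 2888 against 1184 and 966 against 616.

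Lipid and lysosome genes gave 4 of 12 and 4 of 21 higher and none lower. Plin2, a lipid droplet coat protein, was at 1695 against 467 CPM, Acsl1, a fatty acyl-CoA synthetase, at 197 against 59.9, and Hcar2, the niacin receptor, at 1091 against 510.5. Plin2 and Hcar2 were higher in 7 of 7 libraries and Acsl1 in 6. Lipa, the lysosomal acid lipase, was at 83.2 against 19.2 and Atp6v1a, a proton pump subunit, at 360.3 against 137, each higher in all 7. Cd68, also a macrophage marker, was at 272 against 125.

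Of 13 granule and maturation genes tested, 7 were lower and none higher, with a median log2 ratio of -1.51. Lcn2, the siderophore-binding granule protein lipocalin 2, was at 645, 198 and 441 CPM in libraries 4, 8 and 10 against 1453, 2015 and 6725. It was lower in all 7 libraries, where the members of library 12 stood above the Retnlg-positive cells of libraries 1, 2 and 9. Mmp8, the neutrophil collagenase, was at 0 in the members of libraries 1, 2 and 9 and at most 163 CPM elsewhere, against 188 to 1395 in the Retnlg-positive cells, with no overlap. Anxa1, Wfdc21 and Padi4, a histone-citrullinating enzyme, were at 103 against 496, 266 against 949 and 12.6 against 67.1 CPM. Ly6g was at 8.82 against 76.7 CPM and lower in 7 of 7. Among adhesion genes, Selplg (the adhesion ligand PSGL-1) and Itga4, an integrin subunit, were lower, at 309 against 635 and 76.9 against 182. Cxcr2 was at 488 against 776 CPM (ratio 0.628, 0.54 to 0.73) but was not called.

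Outside the lists, the gene with the highest median was Inhba, the activin A subunit, at 805 against 26.4 CPM and higher in 6 of 7 libraries. It was followed by Syne1 (151 against 35.9), Sh2b2 (152 against 105; -0.44 in log2 ratio with thinned cells), Fnip2 (241 against 28.8), Apobec1 (73.1 against 28.8) and the noncoding RNA Tug1 (95.8 against 31.2). Of lower genes, Pi16 was at 16.4 against 129, Dhrs7 at 64.3 against 254 and Pglyrp1, a peptidoglycan recognition protein of granules, at 105 against 712 CPM. Pigx and Snapc5 were at 29 against 71.9 and 17.6 against 64.7. Hspa1b, a heat shock gene near-identical to Hspa1a, headed the lower genes at a median log2 ratio of -3.94, but its value pooled over all libraries was 318 against 242 CPM. Both the libraries used and their weights differ between these values, and why the direction turned was not tested.

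When both populations held at least 2 UMIs of Ccl3 and differed in Retnlg, few genes were called. The 300 Ccl3-positive Retnlg-positive neutrophils were deeper (median 3485.5 against 1726 UMIs), so absence of Retnlg in a member can also be a missed transcript. In libraries 4, 8, 10 and 12, 8 of 3198 genes were higher in the members (0.25%) and 14 lower (0.438%), and without library 4 the counts were 25 and 61. In library 4 alone they were 130 and 71. A demand for the same sign in more libraries tends to leave fewer genes. These shares therefore cannot be set beside those of comparisons made in fewer libraries. Ccl4 was at 14000.4 against 13331 CPM, Cxcl2 at 41008 against 39404, Hilpda at 5207 against 4751, Cd274 at 1022 against 1116 and Cstb at 2152 against 2307. The intervals of these 5 ratios lay between 0.84 and 1.14. Tnf, at 295 against 153 CPM, and Csf1, at 769.8 against 454, were not called but stood above in 5 of 5 libraries. Granule genes were not called either: Lcn2 was at 476 against 725, Mmp8 at 84.4 against 128 and Wfdc21 at 266 against 433, the last 2 below in 5 of 5 libraries. The higher genes were Irgm1, an interferon-induced GTPase (224 against 87.3 CPM), Scimp, Kdm5c, AI413582, Huwe1, Dnaja2, Prnp and Ly6i. Of these 8 and the 14 lower genes, 2 and 2 passed with pooled UMIs, 1 and 2 with thinned cells, and 0 and 0 with thinned cells in 5 libraries with at least 10 cells. The lower genes were led by Gm5483, of the stefin family (411 against 723), Dirc2, Zmynd11, Hdac4 and Uap1l1, and Stfa2l1, another stefin, was also lower (176 against 283). Genes of the stefin cluster are close copies and their counts are uncertain.

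**Figure D3:**
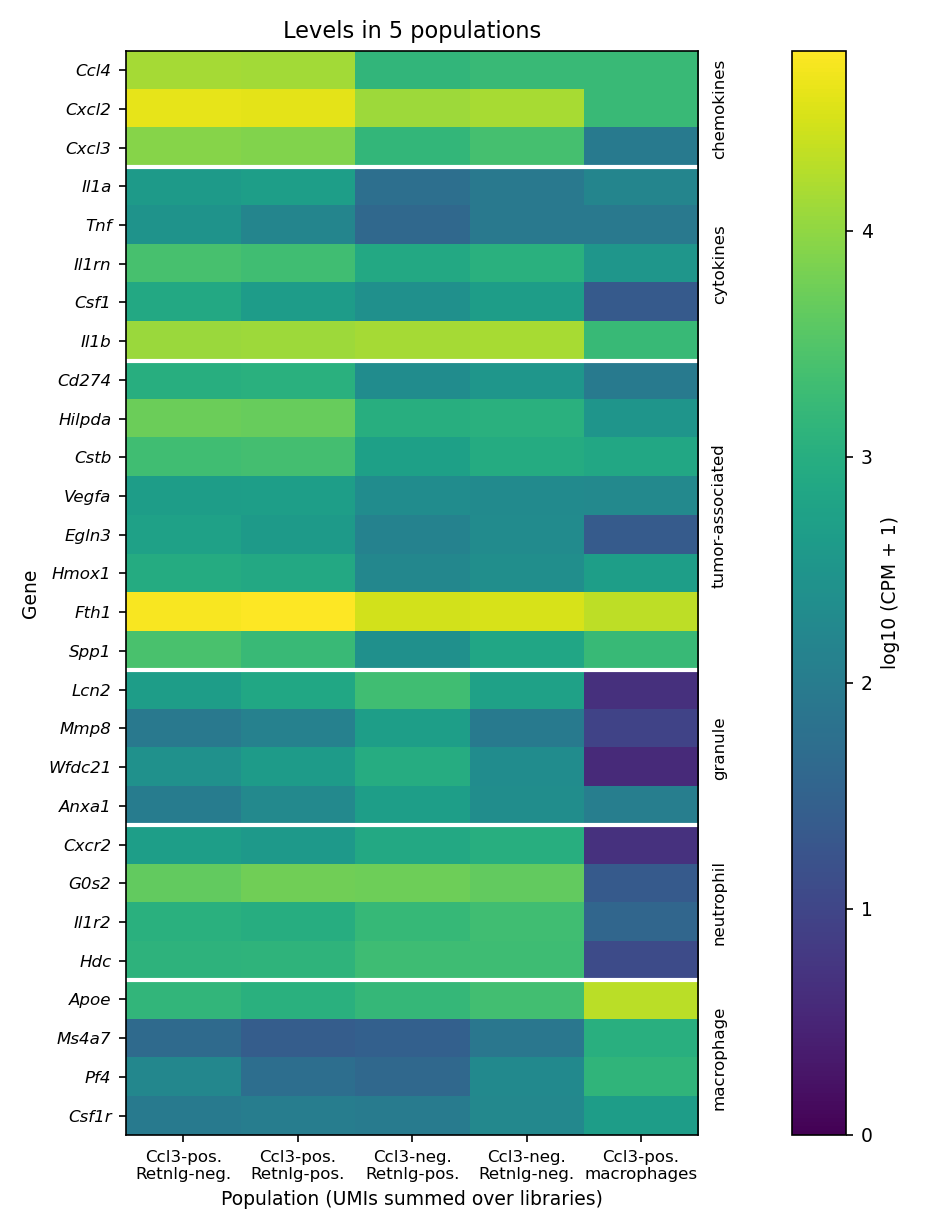
Heat map of log10 (CPM + 1) of selected genes (rows, grouped by role) in 5 populations with UMIs summed over libraries (columns). Both Ccl3-positive neutrophil columns are alike for the chemokine and tumor-associated genes (Ccl4 14000.4 and 13331 CPM), while macrophages differ in the neutrophil and macrophage genes (Apoe 1445 CPM in the members and 19878 in macrophages).

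The members could be set against the 219 neutrophils without a UMI of either gene in library 4 alone (156 and 76 cells), and those cells were shallow (median 828 UMIs), so some may carry transcripts that were missed. Of 2242 genes, 168 were higher (7.49%) and 245 lower (10.9%) in that library. In 8 libraries with at least 10 cells of both, 22 genes were higher and 24 lower with the same sign in all, of which 10 and 12 were among the 168 and 245. Ccl4 was at 19287 against 1239 CPM in library 4 and higher in 7 of 8 libraries. Cxcl2 (46969 against 12616 CPM in library 4), Cxcl3 (12998 against 3218) and Hilpda (5973 against 2236) were higher in 8 of 8. By list, all 3 CXC chemokines tested were called higher. Of 28 hypoxia and glycolysis genes, only 2 were higher and 1 lower (median log2 ratio 0.04). Interferon-stimulated genes gave 1 higher and 1 lower of 20, and neutrophil identity genes 1 higher and 3 lower of 19. Cd274 was at 1022 against 325 CPM pooled, Hmox1 at 879 against 231, Tnf at 295 against 86.6 and Spp1 at 2623 against 682, each called and higher in 7 of 8. Without library 4, Spp1 was at 1137 against 319. Some markers of other cells were also called higher in library 4, namely Cd74 and H2-Ab1 of antigen presentation and the monocyte gene Ms4a4c. Over all libraries these 3 genes were at 800.1 against 1259, 387 against 675 and 192 against 242 CPM, and higher in 4, 5 and 3 of 8. Ms4a4c was the only 1 of 5 monocyte markers called. Of 7 macrophage markers, none was higher and 1, Csf1r, was lower (log2 ratio -1.24 in library 4). Il1a, Il1rn and Bcl2a1b were called and higher in 6 of 8, and Fth1 and Ccrl2, a chemokine-binding receptor, in 7. Hbegf, a growth factor gene, had 83 UMIs in the members (105 CPM) and none among 277188 UMIs of the other cells. Selplg was lower in 8 of 8, at 309 against 823 CPM. Among the largest differences in library 4, Nrd1, at 114 against 0 CPM there, was lower in 6 of 8 libraries and Dock10, also called higher, in 4 of 8. Lrg1, Usp7, Plscr1 and Ripor2, called lower, were lower in 6, 4, 5 and 7 of 8.

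Ccl3 is also made by macrophages, and 14430 Ccl3-positive macrophages (Adgre1 and C1q transcripts present, median 9576 UMIs) served as another population. In libraries 4, 8, 10 and 12, 594 of 7327 genes were higher in the members (8.11%) and 2640 lower (36.0%). With cells thinned to 1000 UMIs the counts were 395 and 617, and in 10 libraries with at least 10 members 323 and 1554. The gates set both populations apart by neutrophil and macrophage genes, so the next counts describe the gates. Of 19 neutrophil identity genes, 17 were higher and none lower, among them G0s2 (4460.2 against 21.4 CPM), Hdc (1247 against 11.6), Cxcr2 (488 against 3.75) and Hcar2 (1091 against 21.1), each higher in 10 of 10 libraries. All 12 macrophage markers were lower, among them Apoe (1445 against 19878), Ms4a7 (45.4 against 1082), Pf4 (165 against 1397) and Mrc1 (13.9 against 308).

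Both kinds of Ccl3-positive cell differed in the other chemokines they carried. Of 7 CXC chemokines, 3 were higher and 3 lower in the members, and of 7 CC chemokines, 2 and 4. Cxcl16 and Cxcl9 were among the lower genes (median log2 ratio -3.41 and -3.29). The same limit of 2 UMIs of Ccl3 asked for a higher share of UMIs in the shallower members (median 1726 against 9576 UMIs). Its part in the levels of genes that vary with Ccl3 was not tested. Cxcl3 was at 452 to 12998 CPM in the members of 10 libraries (median 4231) and at 6.16 to 566 in the macrophages, higher within each library although the ranges met. Cxcl2 was at 13079.9 to 52359.7 against 1114 to 2109 and Ccl4 at 4089.5 to 19287 against 1365 to 2162, both without overlap. The monocyte-attracting genes Ccl12, Ccl7 and Ccl8 were lower in the members of 10 of 10 libraries, at 55.4 against 1482, 32.8 against 711 and 92 against 1055 CPM. Of 13 cytokine and interleukin 1 genes, 10 were higher and none lower: Il1b was at 12100.4 against 1736 CPM, Csf1 at 769.8 against 22.2, Ptgs2 at 3115 against 195 and the decoy receptor Il1r2 at 1091 against 37.1. Of 29 hypoxia and glycolysis genes, 17 were higher and none lower, with Egln3 at 552 against 23, Hilpda at 5207 against 319.6 and Slc2a1, the glucose transporter GLUT1, at 388 against 97.9. Cd274 was at 1022 against 93.6 CPM, a ratio of 10.9 (10.2 to 11.7), and without library 4 9.72.

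Of 19 NF-kB genes, 10 were higher and none lower, and of 23 interferon-stimulated genes, 12 were higher and 2 lower, with Nfkbia at 4487 against 503 CPM and Rsad2, an antiviral enzyme, at 2888 against 337. Of 21 lysosomal genes, 16 were lower and none higher: Ctsc was at 165 against 1490.0, Ctsb at 1431 against 3279, Ctsd at 1401 against 2699.8. Lyz2 was at 1618 against 8557 and lower in 9 of 10 libraries. Of both arginase genes, Arg2 was higher in the members (367 against 11.3) and Arg1 lower (384 against 787, and 65.8 against 743 without library 4). Other higher genes were Slpi, a protease inhibitor of granulocytes, Upp1, Cd24a and AC110211.1, and Fcrls was lower. Ezh2, the target of the drug, was at 8.82 CPM in the members (7 UMIs, a UMI in 2.05% of them) and at 45 in macrophages. A UMI of Ezh2 was found in 21.4% of the T cells. Of 9 genes of polycomb repressive complex 2 tested against macrophages, 2 were lower, Ezh2 and Rbbp7 (10.1 against 75.8 CPM), and none higher. Of all genes tested there, 36.0% were lower, and the median log2 ratio was -0.40 for the 9 genes and -0.75 for all, so the list did not stand out. Ezh2 met the detection limit of 10% of cells only through the deeper macrophages. None of the 3 genes tested against Retnlg-positive cells was called.

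The members were spread widely in the share of their UMIs that each list took. The CXC chemokines took 0.819 to 10.8% of the UMIs of a cell (10th to 90th percentile, median 3.84%) and 1.83 to 6.06% of library sums. Tumor-associated neutrophil genes, which include Fth1, took 2.79 to 16.6% of a cell (libraries 5.01 to 11.6%), and hypoxia and glycolysis genes 0.634 to 4.03% (libraries 1.14 to 2.6%). Interferon-stimulated genes took 0.243 to 3.92% (median 1.28%, and 1.3% with cells thinned to 1000 UMIs). In the 251 members thinned in this way, 41 had no UMI of 10 interferon-stimulated genes (Rsad2, Ifit1, Ifit2, Ifit3, Isg15, Isg20, Oasl1, Oasl2, Usp18 and Cmpk2) and 79 had at least 5 of them. Those 79 cells came from several libraries, with 44 of 113 in library 4, 6 of 35 in library 8, 6 of 21 in library 10 and 11 of 34 in library 12. Shares per cell hold more counting noise than library sums, which also hold some, most of all in libraries with few members.

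**Figure D4:**
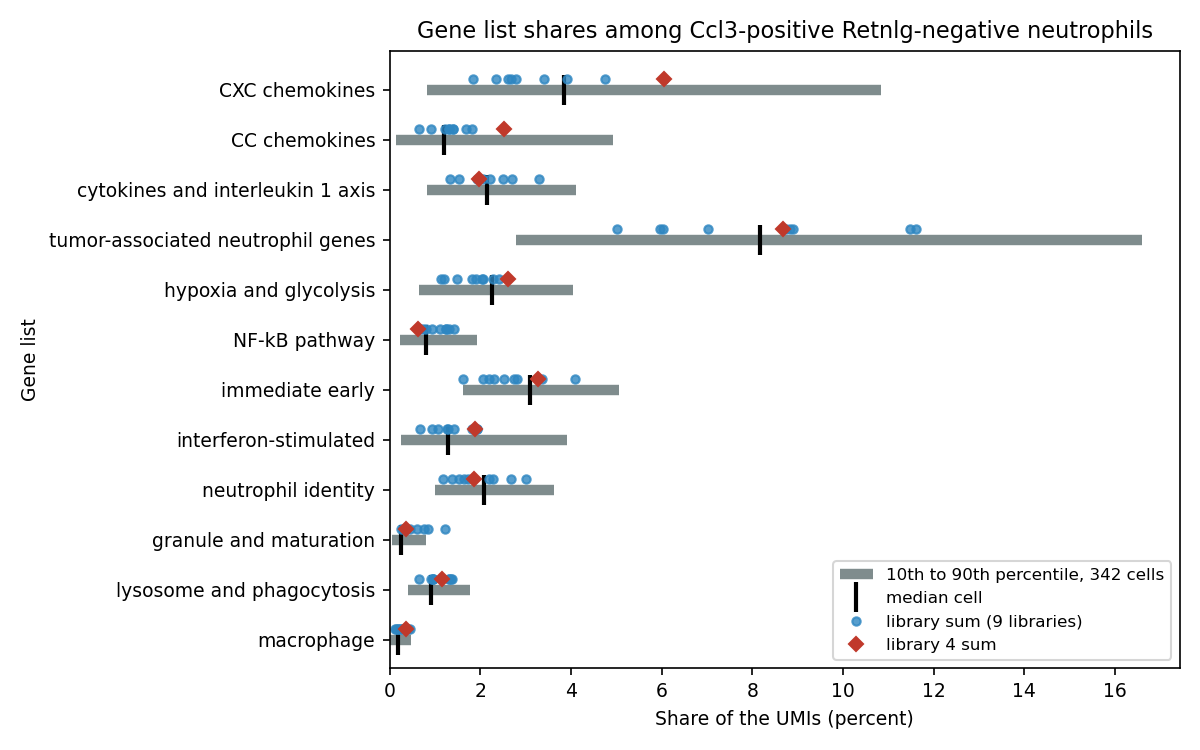
Share of UMIs (percent, x axis) of 12 gene lists (y axis) in the members, with grey bars from the 10th to the 90th percentile of 342 cells, a black mark at the median cell, blue points for 9 library sums and a red diamond for library 4. The CXC chemokine bar runs from 0.819 to 10.8%, wider than the library range of 1.83 to 6.06%.

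Across the 251 thinned members, Ccl3 correlated with Cxcl2 (Spearman's rho 0.65, 0.74 within library 4 and 0.55 in the others), Ccl4 (0.48, 0.63 and 0.32), Ier3 (0.43, 0.40 and 0.44) and Cd274 (0.37, 0.32 and 0.36). For Hilpda the values were 0.37, 0.55 and 0.20. These are descriptions over cells that share libraries and had to hold Ccl3. Il1b (0.04), Cstb (0.04) and S100a8 (0.00) had values near 0, and Cxcr2 was at -0.20. Between lists, the share of hypoxia and glycolysis genes had a rho of -0.11 with that of interferon-stimulated genes (-0.10 in library 4 and -0.23 in the others), and CXC chemokines a rho of 0.38 with cytokines (0.43 and 0.41).

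The members of library 4 had the highest levels of Arg1, Pf4, Ccl2 and Spp1 among the 10 libraries, but not of the macrophage markers as a list (0.347% of UMIs, against 0.436% in library 1 and 0.4% in library 2) or of the monocyte markers (0.324%, against 0.749% in library 7). Their Arg1 level was 889 CPM against 65.8 in the members of the other libraries, that of Pf4 378 against 30.8, that of Ccl2 1025 against 101 and that of Spp1 4977 against 1137. At least 3 of 7 genes (Pf4, Maf, Fcgr1, Ms4a7, Mrc1, Arg1 and Fn1, chosen after their values were seen) had a UMI in 29 of its 156 members (18.6%) and in 6 of 186 elsewhere (3.23%). Arg1 is of the tumor-associated list and Fn1 of the monocyte list, and the others are macrophage markers. As Arg1 and Pf4 were highest in library 4, the choice of genes set part of this excess. Those 29 cells were deeper, with a median of 3179 UMIs against 1257 in the 42 members of library 4 with none of the 7. Spp1 was at 8098 CPM in the 29 cells and 1667 in the 42, and Apoe at 3233 and 1067. Csf3r was at 816 and 1350.4, S100a8 at 8713 and 17655, and Hilpda at 4119.6 and 7419. The part of joined cells or of macrophage RNA in these levels was not tested.

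The 76 members with 2 or 3 UMIs of Ccl3 had Hilpda at 3316 CPM, Cd274 at 491 and Cxcl2 at 16098, and the 57 cells with 1 UMI 1748, 364 and 10464. The 85 cells that met all limits but held 1 UMI of Retnlg had Hilpda at 4418, Cd274 at 1122 and Cxcl2 at 34790, against 5207, 1022 and 41008 in the members. The 356 cells with no UMI of Csf3r that met the other limits outnumbered the members, and had Cxcr2 at 200.3 CPM and Hilpda at 6160, against 435 and 5984 in the 157 members with 1 UMI of Csf3r. For S100a8 and S100a9, 19 members lay at 20 to 40 per 10000 and 22 cells at 10 to 20, with Cxcr2 at 111 and 107 CPM. Those 19 members had Lyz2 at 4930.5 CPM, Csf1r at 254 and G0s2 at 1665, against 1618, 89.5 and 4460.2 in all members. The members nearest to this limit thus had more Lyz2 and Csf1r and less G0s2. In the 22 cells outside it, the values were 3396, 107 and 1074 CPM. For C1q, 80 members held at least 1 UMI and 101 cells lay at 5 to 10 per 10000, with Apoe at 1575 and 1658 CPM.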

How the data were processed

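The authors deposited 1 pooled matrix of raw UMI counts per gene and cell barcode, made with Cell Ranger from 10x 3′ libraries on mm10 (version 2.1.1 in the submitters' processing notes, 3.0.2 in the matrix header). The notes also name Seurat. The authors' cell annotation was not used here. From these counts, cells were gated by the limits stated in the report, and UMIs were summed by library and population. Genes with a UMI in at least 10% of cells of either population were compared, without the genes of the rule, in libraries with at least 20 cells of both, as log2 ratios of counts per 1000000 UMIs (CPM) with a pseudocount of 10 CPM. Exact intervals (Poisson, Clopper-Pearson, and conditional binomial for ratios, 95%) cover counting error only. Libraries held 21649947 to 158760328 UMIs. As the labels do not tie library numbers to mice, and libraries were not assigned from cell totals or order, no groups were compared and no p-value was computed.

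Ratios were tested on simulated data. Scrublet doublet scores were computed, and no cell was removed by them. Members and lists were chosen with earlier results of these data known. The text names list members, up to 4 with the largest change and those that the biology turns on, and up to 10 genes in each direction per comparison. The comparisons with Ccl3-positive Retnlg-positive neutrophils and over libraries with at least 10 cells were added after cell numbers were seen. Alternatives were other limits, pseudocounts, detection filters, cell minimums, pooling, thinning to 1000 UMIs, and leaving out libraries. Scores came from scanpy 1.11.5, intervals from scipy 1.17.1, figures from matplotlib 3.10.9, and all other steps from pandas 2.3.3 and numpy 2.4.6 under Python 3.11.15. A few genes are not reported here.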

Additional observations from a re-analysis of the deposited data

How the results depend on the processing

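Populations were compared within libraries. Vehicle was not compared with EZH2i because the labels do not tie library numbers to the mice, and no significance test was run. The number of members was 342, and it was 185 with at least 2 UMIs of Csf3r, 227 under the rule on thinned cells (146 of them members), 186 without library 4, 200 in libraries with Y-linked transcripts and 142 in those without.

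Against Retnlg-positive Ccl3-negative neutrophils, 606 genes were higher and 307 lower with detection in 1% of cells, 80 and 94 with 25%, 68 and 65 in libraries with at least 10 cells (87 and 84 without library 4), and 594 and 471 in library 4, the only library with Y-linked transcripts and enough cells. Leaving out library 4, 8 or 10 gave 305 to 422 higher and 262 to 306 lower genes. Pooling gave 234 and 189 genes and thinning 205 and 287, against 204 and 198, and 120 and 108 of the latter passed when pooled and 75 and 77 when thinned. Against the cells without either transcript, the counts were 892 and 1139 with 1% detection, 55 and 52 with 25%, 22 and 24 with at least 10 cells (30 and 31 without library 4) and 97 and 126 pooled, with 133 lower when pooled without library 4. Against macrophages, 1676 were lower with 25% detection, 323 and 1554 were called with at least 10 cells (324 and 1574 without library 4), and 395 and 617 with thinned cells (363 and 605 with at least 10 cells).

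Against Ccl3-positive Retnlg-positive cells, the counts were 23 and 41 with a pseudocount of 1 CPM, 35 and 40 with 1% detection, 1 and 1 with 25%, and 130 and 71 in library 4 alone, the only library with at least 50 cells and the only one with Y-linked transcripts and enough cells. They were 25 and 61 without library 4, which was also the count without Y-linked transcripts. With at least 10 cells and without library 4 they were 23 and 38. Pooling gave 4 lower genes, and 19 higher without library 4. Thinning gave 16 higher, and 5 lower with at least 10 cells. Leaving out library 8, 10 or 12 gave 14 to 34 higher and 29 to 41 lower genes.

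Signs turned in 25 gene values. Log2 ratios were 0.38 for Hspa1b pooled and -0.039 for Arg1 pooled without library 4. With thinned cells, where library 8 alone had enough, they were -0.22 for Cxcl10, -0.44 for Sh2b2, -0.57 for Tpi1 and -1.02 for Cmpk2, and with at least 10 cells -0.12 for Cxcl10 and -0.88 for Cmpk2. Against cells without either transcript, they were -0.030 for Dock10 and -0.83 for Nrd1 with at least 10 cells (-0.19 and -1.06 without library 4), -0.48 for Nrd1 pooled without library 4, and 0.041 for Plscr1 and 0.64 for Lrg1 with thinned cells. In the same comparison, the markers called higher in library 4 alone were at -0.65 for Cd74, -0.79 for H2-Ab1 and -0.32 for Ms4a4c pooled, -0.79, -1.02 and -0.87 pooled without library 4, and, with at least 10 cells, -0.32 for Cd74 and -1.07 for Ms4a4c (-0.71 and -1.26 without library 4). The cause was not tested. Of the other gene values, 346 moved and 2123 did not. With at least 50 cells, the comparison with Retnlg-positive Ccl3-negative neutrophils gave no value. With the minimum of 20 cells, that with cells without either transcript gave none when thinned, without library 4 or without Y-linked transcripts.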
